A study of Mus musculus with 16 samples.

Results

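6 genes that mark heart muscle of the atria, the receiving chambers, were followed in mouse hearts after social stress. They were Myl7, Myl4, Sln, Bmp10, Dkk3 and Nr2f2, taken by their gene name among the probes of the array that are not control spots. All 6 of 6 were found, with 1 probe each, among 22763 features tested, of which 16492 have a gene name. The hearts came from C57BL/6 mice of a model of posttraumatic stress disorder, and each heart was read on its own 1-colour Agilent array with the dye Cy3. The 16 arrays formed 4 groups of 4: T1R1, T2R1 and T3R1 mice met aggressor mice on 1, 2 or 3 days and then rested for 1 day, while control mice sat in wire mesh boxes in a cage that held no aggressor. The labels place the control mice in the arm of 2 days, so T1R1 and T3R1 have no control of their own duration, and they give no sex or age. The protocol text gives 6 hours a day for 5 or 10 days, which is longer than the group names say, and the group names were followed. The tissue is labelled only as heart, without saying how the chambers were taken.

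Atrial and ventricular muscle cells use different versions of several contractile proteins. Myl7 and Myl4 encode the atrial regulatory and essential light chains of myosin, and Sln encodes sarcolipin, a small membrane protein that slows the calcium pump of the sarcoplasmic reticulum. Bmp10 is a growth factor that the adult right atrium releases into the blood, where it acts on endothelial cells through the receptor Acvrl1. Dkk3 is a secreted member of the Dickkopf family, and Nr2f2 (COUP-TFII) is a nuclear receptor needed for atrial identity and also active in veins and lymphatic vessels. In RNA from a whole piece of tissue, fewer atrial cells and less RNA of an atrial gene per cell cannot be told apart.

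The probes that carry the results are short stretches of these transcripts. The Myl7 probe lies at chr11:5798186-5798435 on the minus strand of mm9, the build of all probe positions here, and its 60 bases span 250 bases of the genome. The Bmp10 probe, at chr6:87384427-87384486 on the plus strand, ends with a stop triplet, shown in capitals. The Sln probe lies at chr9:53701574-53701633 (plus strand) and the Dkk3 probe at chr7:119259556-119259615 (minus strand), and the first 30 bases of these are shown because both genes passed the test in T2R1.
Myl7 probe: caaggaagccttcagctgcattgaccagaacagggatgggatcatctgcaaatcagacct
Bmp10 probe: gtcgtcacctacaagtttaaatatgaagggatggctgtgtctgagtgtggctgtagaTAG
Sln probe, first 30 bases: gccttagctttgttccctagcaaatgtact
Dkk3 probe, first 30 bases: gcctgtaaatcgcatctgaagataccacag
The probes of Myl4 (chr11:104448441-104448500, plus strand) and Nr2f2 (chr7:77496873-77496932, minus strand) are not printed. Each member therefore rests on a single probe, and all 6 probes were well above background and below saturation on all 16 arrays.

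Since the members varied together, their promoters were read. No promoter of Sln or Dkk3 was in the set of RefSeq promoters used here. For the other 4 members (Myl7, Myl4, Bmp10 and Nr2f2, build GRCm38.p6) the 250 bases before the start of transcription were taken. They were searched on both strands for AGGTCA, a motif bound by nuclear receptors such as Nr2f2, for the letters GATAAG, which GATA factors bind, for AGGTGT, the core of a T-box site, and for the CArG box of serum response factor by its name. The promoters of Myl7 and Bmp10 are shown because they alone of the 4 held a match, in capitals.
Myl7, chr11:5898783-5899032, minus strand: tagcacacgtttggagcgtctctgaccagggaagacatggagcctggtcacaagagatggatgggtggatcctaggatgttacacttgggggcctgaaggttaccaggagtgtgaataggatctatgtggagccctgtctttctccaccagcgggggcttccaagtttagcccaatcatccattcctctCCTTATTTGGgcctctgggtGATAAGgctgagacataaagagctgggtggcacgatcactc
Bmp10, chr6:87428744-87428993, plus strand: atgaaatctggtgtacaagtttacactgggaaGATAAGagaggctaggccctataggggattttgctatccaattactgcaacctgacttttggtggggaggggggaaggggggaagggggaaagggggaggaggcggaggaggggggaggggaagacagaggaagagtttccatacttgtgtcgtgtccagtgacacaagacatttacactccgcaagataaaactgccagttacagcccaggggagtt
In Myl7 a CArG box begins at position -61 and a GATAAG at -41, counted from the start, and in Bmp10 a GATAAG begins at -218. Over the 32851 promoter windows of this length searched, 1.47% hold a CArG box, 6.55% a GATAAG, 14.0% an AGGTCA and 11.8% an AGGTGT. None of the 4 members' windows holds an AGGTCA or AGGTGT in these letters. A match is a description of the letters in this window only.

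Values are log2 of the processed signal minus the log2 of the array's 75th percentile, so a value of 0 is the brightness of that percentile. Control and T3R1 lay on 1 slide and T1R1 and T2R1 on the other. A difference of T1R1 or T2R1 from control or from T3R1 cannot be told apart from the slide. Control with T3R1, and T1R1 with T2R1, shared a slide. Control replicate 1 stood apart from its group. Its 75th percentile was 547 scanner units, against 257 to 273 in control replicates 2 to 4 and 283 to 407 in the exposed groups, and its mean correlation across features was 0.970 with the other controls and 0.974 with the arrays of the other groups. The members' comparisons with control are therefore given with and without that array, and for other genes where the text says so. From 46.5% to 67.1% of the spots of an array were well above background.

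All 6 atrial genes had lower group means in T1R1, T2R1 and T3R1 than in control, and for all but Nr2f2 the difference was largest in T2R1, where Dkk3 and Sln passed the test. Dkk3 was 2.16-fold lower and Sln 1.81-fold lower in T2R1. In T1R1, and in T3R1, the only exposed group on the slide of control, none of the 6 passed with all arrays in the fit. T2R1 lay on the other slide, so its calls cannot be told apart from the slide. Omitting control replicate 1 brought 3 of 6 past the threshold in T1R1, 5 of 6 in T2R1 and 5 of 6 in T3R1, all lower, while the share of all features called lower went from 2.11%, 3.58% and 0.189% to 9.65%, 9.37% and 19.2%. Of 12 muscle genes that atria and ventricles share, 0 passed in these comparisons with all arrays, and 2, 1 and 7 were lower without control replicate 1.

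**Figure D1:**
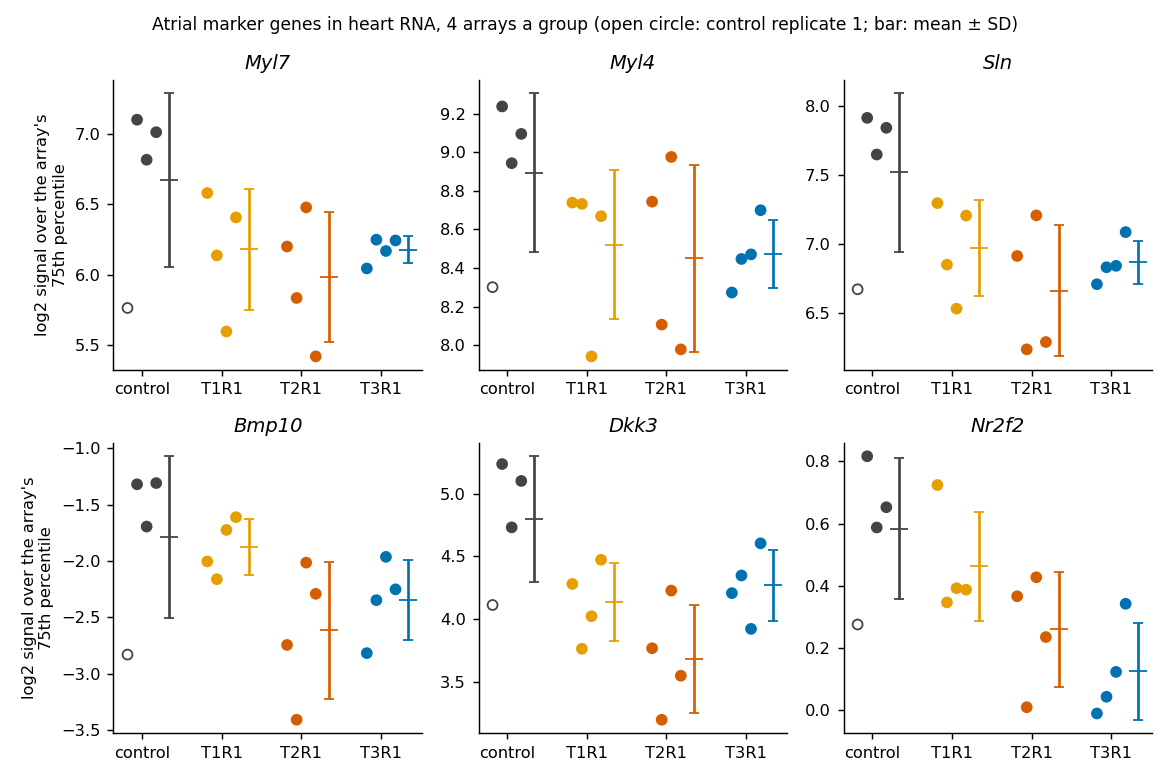
Each panel plots 1 atrial marker gene, with the log2 signal over the array's 75th percentile on the vertical axis and the 4 groups on the horizontal axis; points are single arrays, bars the mean ± SD of 4, and the open circle control replicate 1. Control replicates 2 to 4 lie at the top of every panel except those of Bmp10, Myl4 and Nr2f2, where 1 or more arrays of T1R1 or T2R1 reach the lowest of them, and control replicate 1 lies well below the other controls in all 6.

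Myl7, the regulatory light chain, had log2 values of 5.76, 7.10, 6.82 and 7.01 in control replicates 1 to 4 and 6.58, 6.14, 5.60 and 6.41 in T1R1. In T2R1 they were 6.20, 5.83, 6.48 and 5.42, and in T3R1 6.04, 6.25, 6.17 and 6.24. The 12 exposed arrays all lay below control replicates 2 to 4 and the T3R1 arrays lay close together, but control replicate 1 was lower than all but 2 of the exposed arrays. The group means were 6.67 ± 0.62 in control (SD, n = 4 in each group), 6.18 ± 0.43 in T1R1, 5.98 ± 0.46 in T2R1 and 6.18 ± 0.10 in T3R1. Against control Myl7 differed by -0.49 ± 0.29 (SE) in T1R1, -0.69 ± 0.29 in T2R1 and -0.50 ± 0.29 in T3R1, none past the threshold (limma, adjusted p = 0.309, 0.122 and 0.324). All 3 passed without control replicate 1, at -0.80 ± 0.24, -1.0 ± 0.24 and -0.80 ± 0.24 (adjusted p = 0.0392, 0.0125 and 0.0244).

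Myl4, the essential light chain, was the least changed of the muscle proteins. Its values were 8.30, 9.24, 8.94 and 9.10 in control, 8.74, 8.73, 7.94 and 8.67 in T1R1, 8.74, 8.11, 8.98 and 7.98 in T2R1, and 8.27, 8.45, 8.47 and 8.70 in T3R1. The T2R1 arrays split into a pair near control (replicates 1 and 3) and a pair far below it (replicates 2 and 4). The differences from control were -0.37 ± 0.25 in T1R1, -0.44 ± 0.25 in T2R1 and -0.42 ± 0.25 in T3R1 (limma, adjusted p = 0.378, 0.26 and 0.336), and they stayed short of the threshold without control replicate 1 (-0.57, -0.64 and -0.62, adjusted p = 0.115, 0.072 and 0.0734). In T2R1 the 95% interval of the difference ran from -0.99 to 0.10.

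Sln, which restrains the calcium pump, had values of 6.67, 7.92, 7.65 and 7.84 in control. They were 7.30, 6.85, 6.53 and 7.21 in T1R1, 6.92, 6.24, 7.21 and 6.29 in T2R1, and 6.71, 6.83, 6.84 and 7.09 in T3R1. As for Myl7, every exposed array lay below control replicates 2 to 4, and control replicate 1 lay among the exposed arrays. The means stood in the order control (7.52 ± 0.58), T1R1 (6.97 ± 0.35), T3R1 (6.87 ± 0.16) and T2R1 (6.66 ± 0.48), and no 2 neighbours among the exposed groups differed by more than the larger of their SDs. Sln was lower in T2R1 by -0.86 ± 0.28 (limma, adjusted p = 0.0451, 95% interval -1.45 to -0.26), just inside the threshold; leaving out each of the 16 arrays in turn kept this call in 4 of 16 fits, with adjusted p from 0.00544 to 0.134. The differences of -0.55 ± 0.28 in T1R1 and -0.65 ± 0.28 in T3R1 did not pass (adjusted p = 0.233 and 0.188). Leaving out control replicate 1 gave -0.83 ± 0.23 in T1R1, -1.14 ± 0.23 in T2R1 and -0.93 ± 0.23 in T3R1 (adjusted p = 0.03, 0.00544 and 0.00986).

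Bmp10, the circulating growth factor, was dim. Its processed signal was 77.0 to 107.2 scanner units in control, 81.9 to 108 in T1R1, 29.8 to 71.0 in T2R1 and 57.7 to 94.9 in T3R1. The T2R1 arrays were all below the control arrays on this unscaled signal, but after scaling the groups overlapped. On the log2 scale control replicates 1 to 4 had -2.83, -1.32, -1.70 and -1.31, T1R1 had -2.0, -2.16, -1.73 and -1.61, T2R1 had -2.74, -3.41, -2.01 and -2.29, and T3R1 had -2.82, -2.35, -1.96 and -2.25. T1R1 was the group nearest to control, with a difference of -0.09 ± 0.34 (95% interval -0.82 to 0.64). T2R1 differed by -0.83 ± 0.34 and T3R1 by -0.56 ± 0.34, neither past the threshold (limma, adjusted p = 0.112 and 0.342). Both passed without control replicate 1, at -1.17 ± 0.29 and -0.90 ± 0.29 (adjusted p = 0.0125 and 0.0299), and T1R1 did not (-0.43 ± 0.29, adjusted p = 0.291).

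Dkk3, the secreted Dickkopf protein, gave the clearest difference. It had values of 4.11, 5.24, 4.73 and 5.10 in control and 4.28, 3.76, 4.02 and 4.47 in T1R1. T2R1 had 3.77, 3.20, 4.23 and 3.55, and T3R1 4.21, 4.35, 3.92 and 4.60. Of the 4 T2R1 arrays, 3 lay below every control array and replicate 3 lay just above control replicate 1. The means were 4.79 ± 0.50 in control, 4.27 ± 0.28 in T3R1, 4.13 ± 0.31 in T1R1 and 3.68 ± 0.43 in T2R1. In T2R1 Dkk3 was lower by -1.11 ± 0.26 (limma, adjusted p = 0.00918, 95% interval -1.67 to -0.55), and it was the only member past the threshold in the F test over the 4 groups (adjusted p = 0.0308), a call that ended when any 1 of control replicates 2 to 4 or of T2R1 replicates 1, 2 and 4 was left out. Its T2R1 call was kept in all 16 fits that left out 1 array. T1R1 and T3R1 differed from control by -0.66 ± 0.26 and -0.53 ± 0.26 (adjusted p = 0.125 and 0.249), and by -0.89 ± 0.24 and -0.75 ± 0.24 without control replicate 1, where both passed (adjusted p = 0.0256 and 0.0304).

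Nr2f2, the atrial and venous nuclear receptor, had the smallest difference of the 6 in T2R1. Control had 0.28, 0.82, 0.59 and 0.65, T1R1 0.72, 0.35, 0.39 and 0.39, T2R1 0.37, 0.01, 0.43 and 0.24, and T3R1 -0.01, 0.04, 0.12 and 0.34. Unlike the other members, its lowest group was T3R1, where all 4 arrays lay below those of T1R1. Against control it differed by -0.12 ± 0.13 in T1R1, -0.32 ± 0.13 in T2R1 and -0.46 ± 0.13 in T3R1 (limma, adjusted p = 0.61, 0.112 and 0.0852). With that control left out these were -0.22 ± 0.13, -0.43 ± 0.13 and -0.56 ± 0.13, past the threshold in T2R1 and T3R1 (adjusted p = 0.0277 and 0.00559).

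**Figure D2:**
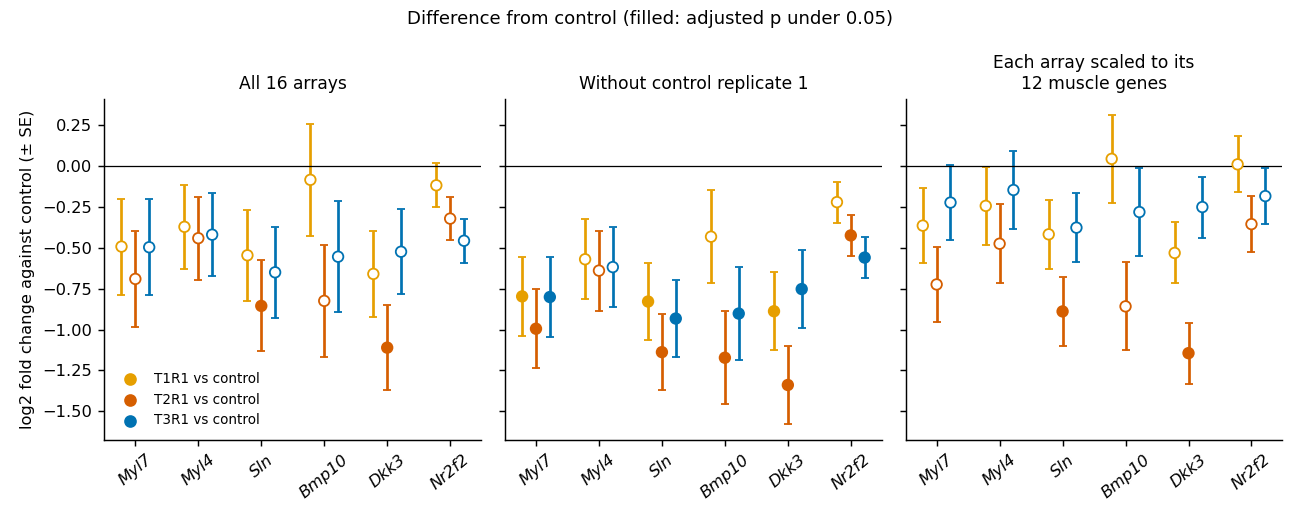
The log2 fold change of each atrial marker gene against control (± SE) is plotted for T1R1, T2R1 and T3R1 with all 16 arrays, without control replicate 1, and with each array scaled to its 12 muscle genes; filled points passed an adjusted p of 0.05. With all arrays Dkk3 and Sln are filled in T2R1 (-1.11 and -0.86), without control replicate 1 the filled points number 3, 5 and 5, and after muscle scaling Dkk3 and Sln in T2R1 are filled.

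Read against all features, the 2 of 6 members called lower in T2R1 stand beside 18.4% of 22763 features called in either direction and 3.58% called lower. The members' median log2 fold change was -0.76 and that of all features 0.02. In T1R1, 9.85% of features were called, and 2.11% were called lower, with 0 of 6 members among them and medians of -0.43 and -0.01. In T3R1, 0.694% of features were called 0.189% lower, and 0 of 6 members, with medians of -0.51 and -0.08. With all arrays 0 of 6 members lay wholly below control in T1R1, T2R1 or T3R1, where 4.07%, 6.33% and 4.39% of all features did. At an unadjusted p under 0.05 limma passed Dkk3 alone in T1R1, all but Myl4 in T2R1, and Sln and Nr2f2 in T3R1. More features passed as well without control replicate 1: 9.65% were called lower in T1R1, 9.37% in T2R1 and 19.2% in T3R1, beside 3, 5 and 5 of the 6 members. In that setting 4, 5 and 6 of the members lay wholly below the controls in T1R1, T2R1 and T3R1, where 17.8%, 20.8% and 26.2% of all features did.

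The place of control replicate 1 among the controls differed before and after scaling. Before scaling, Sln on that array had 55923 scanner units against 54784 to 62010 in control replicates 2 to 4, and Dkk3 9462 against 7243 to 9679, both within their range. Myl7 (29737 against 30784 to 35318) and Bmp10 (77.0 against 84.3 to 107.2) lay below it. Myl4 (172649 against 134309 to 155075) and Nr2f2 (663 against 410 to 453) lay above it. After division by the 75th percentile, all 6 members were below the range of control replicates 2 to 4. The same array had high collagen values, Col1a1 at 5.71 against 3.30 to 3.38 in the other controls and Col3a1 at 6.15 against 3.12 to 3.46. These were near the 5.95 to 6.45 and 6.30 to 6.94 of T3R1. Why this array stood apart was not tested.

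With all arrays, no member passed the threshold between the exposed groups. T2R1 against T1R1, within a slide, gave differences from -0.07 ± 0.25 for Myl4 to -0.74 ± 0.34 for Bmp10 (limma, adjusted p = 0.958 and 0.637). All 6 were below 0, but 0% of all features passed in this comparison by limma, and of the members only Bmp10 had an unadjusted p under 0.05. The interval for Dkk3 in this comparison ran from -1.01 to 0.11. T3R1 against T2R1, across the slides, gave 0.59 ± 0.26 for Dkk3 (adjusted p = 0.11) and values from -0.14 to 0.27 for the others. Here 26.9% of features passed. With each array scaled to 12 muscle genes of both chambers this Dkk3 difference was 0.89 ± 0.19 and passed (limma, adjusted p = 0.0103). In that setting 1.38% of features were called higher, and the median of all features moved from -0.09 to 0.21. T3R1 against T1R1, also across the slides, gave -0.34 ± 0.13 for Nr2f2, whose T3R1 arrays all lay lower (adjusted p = 0.0822). Here 22.9% of features passed and 16.6% lay wholly lower. Without control replicate 1, which enters this comparison only through the spread, Nr2f2 passed (adjusted p = 0.0413), beside 20.2% of features called lower. Bmp10 differed by -0.47 ± 0.34 and the other 4 by 0.14 or less in size. When the 8 arrays of T1R1 and T2R1 were set against the 8 of control and T3R1, which is also slide against slide, Dkk3 was lower by -0.62 ± 0.18 (adjusted p = 0.0194) and the other 5 did not pass, where 30.3% of features passed. In the F test 26.9% of features passed.

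The muscle content of the arrays was followed with 12 muscle genes that both chambers use. They were Actc1, Actn2, Ckm, Mb, Mybpc3, Myh6, Ryr2, Tnnc1, Tnni3, Tnnt2, Tpm1 and Ttn. None of the 12 passed in T1R1, T2R1 or T3R1 with all arrays, and their median differences were -0.02, 0.08 and -0.19. Their median level per array, relative to the control mean, was -0.76 on control replicate 1 and 0.22 to 0.33 on the other controls, -0.42 to 0.02 in T1R1, -0.08 to 0.13 in T2R1 and -0.49 to -0.03 in T3R1. The 4 T2R1 arrays thus lay near the control mean in these genes, which includes control replicate 1, but below each of control replicates 2 to 4. The T1R1 and T3R1 arrays also lay below those 3 controls.

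**Figure D3:**
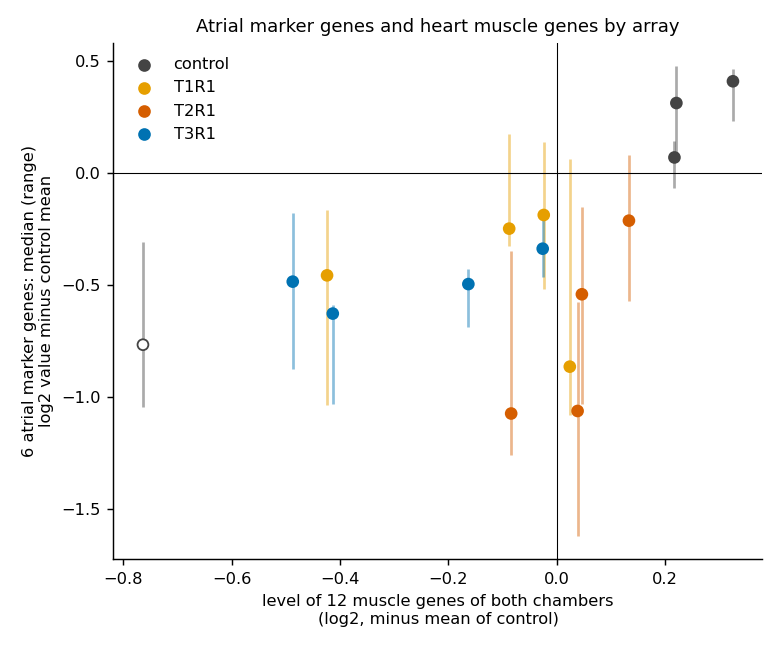
Each point is 1 array, with the median level of 12 muscle genes of both chambers (log2, minus the control mean) on the horizontal axis and the median of the 6 atrial marker genes (minus the control mean; bars, lowest to highest gene) on the vertical axis; the open circle is control replicate 1. T2R1 replicates 2 and 4 lie at -1.06 and -1.07 on the vertical axis with muscle levels of 0.04 and -0.08, while control replicate 1 is low on both axes (-0.76 and -0.76).

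When each array was scaled to these 12 genes instead of its 75th percentile, a setting chosen after the data were seen, Dkk3 and Sln again passed in T2R1. Dkk3 differed by -1.14 ± 0.19 and Sln by -0.89 ± 0.21 (limma, adjusted p = 0.00304 and 0.0168), beside 0.699% of all features called lower. In T3R1 the 6 differences shrank to between -0.38 (Sln) and -0.15 (Myl4), while the median of all features rose from -0.08 to 0.20. There limma called 0 of 6 members and 0% of all features, and at an unadjusted p under 0.05 also 0 of 6 members. In T1R1 the differences ran from -0.53 (Dkk3) to 0.04 (Bmp10) with 0 of 6 called. With this scaling the median of all features was 0.12 in T1R1 and -0.01 in T2R1. With this scaling and without control replicate 1, Bmp10, Dkk3, Myl7 and Sln passed in T2R1 (-0.95, -1.12, -0.77 and -0.92), beside 0.914% of all features called lower, and no member passed in T1R1 or T3R1. The largest of the T3R1 differences was then -0.41 ± 0.22 for Sln (limma, adjusted p = 0.156). The medians of all features were then 0.37, 0.24 and 0.40 in T1R1, T2R1 and T3R1.

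Of 16 further atrial genes, 15 were measured. Pam, Nr2f1 and Hamp fell in T2R1, none passed in T1R1 or T3R1 against control, and the medians of the 15 were -0.08, -0.37 and -0.40 in T1R1, T2R1 and T3R1. Pam encodes the amidating enzyme that is abundant in the membrane of atrial secretory granules. It had 2.69, 2.58, 2.76 and 2.39 in T2R1 against 3.20 to 3.33 in control, a difference of -0.67 ± 0.13 with no overlap (limma, adjusted p = 0.00255), where 6.33% of all features lay wholly below control. It was also lower in T2R1 than in T3R1 (0.58 ± 0.13 for T3R1 minus T2R1, adjusted p = 0.00392). Nr2f1, the close relative of Nr2f2, fell by 0.69 ± 0.14 without overlap (adjusted p = 0.00447). Hamp, which encodes the iron hormone hepcidin, fell by 0.90 ± 0.27 (adjusted p = 0.0305). Kcna5, an atrial potassium channel, did not differ in T2R1 (0.06). It was lower in T3R1 than in T1R1 and T2R1 (-0.62 ± 0.21 and -0.71 ± 0.21, limma, adjusted p = 0.0431 and 0.0206). In this list and those below, every comparison of T3R1 with T1R1 or T2R1 crosses the slides. There 22.9% and 26.9% of all features passed.

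Nppa, the atrial natriuretic peptide and the best known atrial gene, was not among those that moved. It lay between 9.43 and 10.04 in control, 9.44 and 10.01 in T1R1, 9.65 and 10.23 in T2R1, and 9.86 and 10.11 in T3R1, and its differences from control were -0.08, 0.11 and 0.12. Ventricles can also make Nppa. Of the 15 further atrial genes, 3, 8 and 7 were lower without control replicate 1 in T1R1, T2R1 and T3R1 and none higher. Among those lower in T2R1 were Stard10 (-1.04), Mybphl (-0.85) and Tbx5 (-0.70). In that fit, which is also used for the lists below, 9.65%, 9.37% and 19.2% of all features were called lower.

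**Figure D4:**
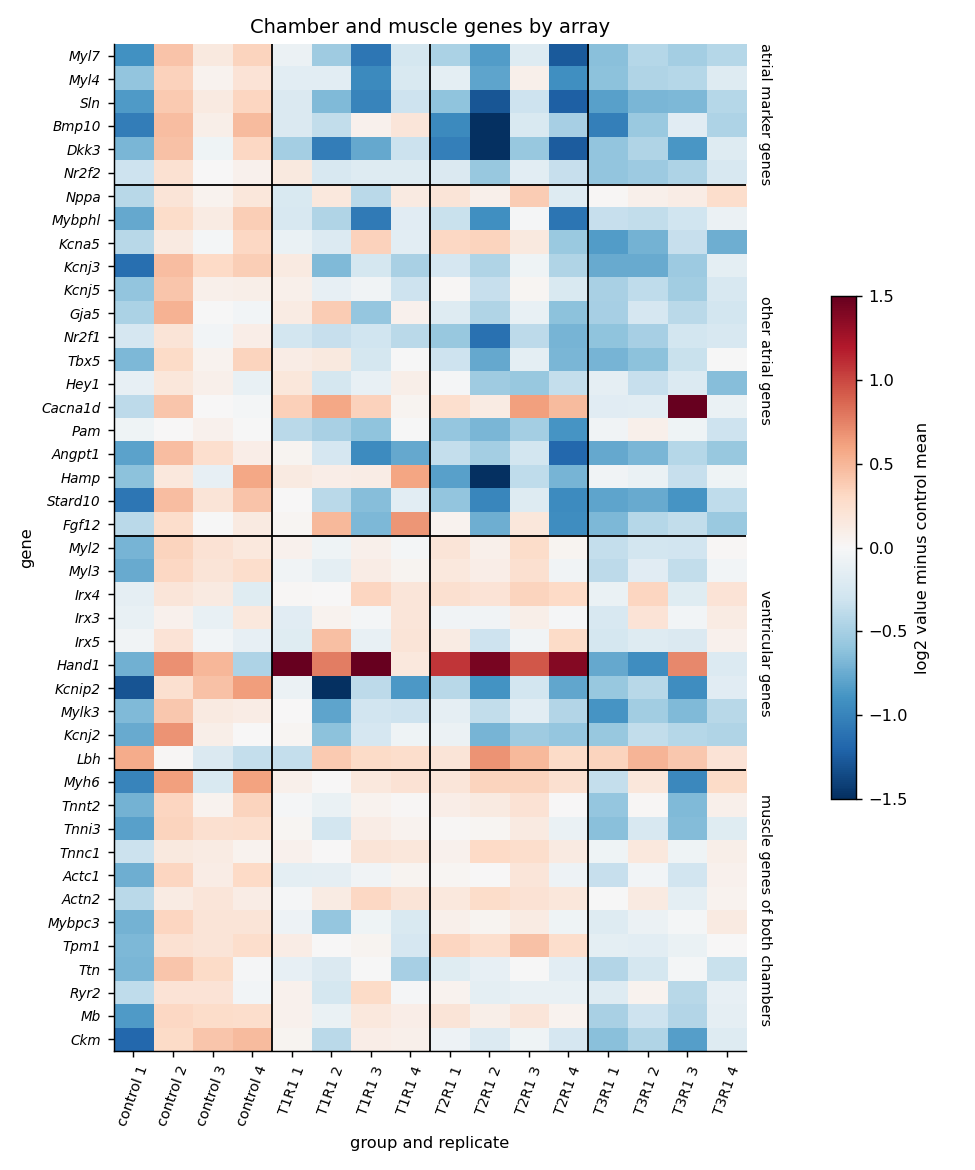
Rows are the 6 atrial marker genes, 15 other atrial genes, 10 ventricular genes and 12 muscle genes of both chambers, columns the 16 arrays, and colour the log2 value minus the control mean (blue lower, red higher, cut at 1.5). The atrial marker rows are blue in most exposed arrays, and their median is lowest in T2R1 replicates 2 and 4 (-1.06 and -1.07). The darkest array differs from gene to gene. Nppa and the shared muscle genes stay pale in T1R1 and T2R1, and control replicate 1 is blue in nearly all rows.

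Of the ventricular list, none of the 10 measured genes passed against control with all arrays, and the medians were 0.01, 0.06 and -0.23 in T1R1, T2R1 and T3R1. Myl2 and Myl3, the ventricular light chains that correspond to Myl7 and Myl4, differed by 0.14 and 0.11 in T2R1 and by -0.23 and -0.24 in T3R1, and Irx4, a ventricular transcription factor, by 0.27 and 0.06. Other members of the list lay lower in T2R1 without passing: the potassium channel genes Kcnip2 and Kcnj2 differed by -0.59 and -0.47, and Mylk3, the cardiac myosin light chain kinase, by -0.28. Myh6, the main adult myosin heavy chain of the mouse in both chambers, differed by 0.27 in T2R1 and Tnnt2, cardiac troponin T, by 0.11. Hand1 was lower in T3R1 than in T1R1 and T2R1 (-1.33 and -1.5, limma, adjusted p = 0.0324 and 0.0155). Its values in T3R1 ran from -5.71 to -4.06 and can lie near background. In the fit without control replicate 1, Kcnip2, Kcnj2 and Mylk3 were lower in T2R1 (-1.02, -0.73 and -0.50) and 1 gene of the list, Lbh, was higher (0.60). In that fit 2 of the 10 (Kcnip2 and Mylk3) were lower in T1R1, and 5 were lower and 1 higher in T3R1. Of the 12 shared muscle genes, Mybpc3 and Ttn were lower in T1R1 (-0.47 and -0.44), 1 was lower in T2R1 and 7 in T3R1. The difference between the atrial and the ventricular list was not tested.

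Genes of the conduction system were sparse on these arrays, with 4 of 8 measured. The defining pacemaker genes Hcn4, Shox2 and Isl1 did not pass the filter on dim probes. Cacna2d2, a calcium channel subunit, fell by 0.75 ± 0.20 in T2R1 (limma, adjusted p = 0.017). Without control replicate 1, 0, 1 and 2 of the 4 were lower in T1R1, T2R1 and T3R1, Cacna2d2 among them in T2R1 and T3R1 (-0.90 and -0.74). Tbx18 was higher in T3R1 than in T2R1 (0.63 ± 0.19, adjusted p = 0.0251) and Tbx3 lower in T3R1 than in T1R1 (-0.40 ± 0.14, adjusted p = 0.0456).

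The partners of the members in their pathways gave few calls with all arrays. Of 6 genes around the calcium pump that Sln inhibits, none passed in any pairwise comparison; Atp2a2, the cardiac pump, differed from control by -0.04, -0.09 and -0.33 in T1R1, T2R1 and T3R1, and Pln, the pump's ventricular inhibitor, by -0.11, -0.12 and -0.38. Of 14 measured genes of the BMP9 and BMP10 pathway, 1 fell in T2R1, the target Id2 (-0.65 ± 0.13 without overlap, limma, adjusted p = 0.00327). Across the slides, Id2 was higher in T3R1 than in T2R1 (0.56 ± 0.13). The receptor Acvrl1 was lower in T3R1 than in T1R1 and T2R1 (-0.30 ± 0.08 in both, adjusted p = 0.0198 and 0.0155), and the target Id1 differed from control by -0.15, -0.17 and -0.50 without passing. Without control replicate 1, 1, 4 and 7 of the 14 BMP genes and 0, 1 and 3 of the 6 pump genes were lower in T1R1, T2R1 and T3R1. Of all features, 9.65%, 9.37% and 19.2% were called lower in that fit.

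For Dkk3, 4 of 8 family members and Wnt receptors were measured, since Dkk1, Dkk2, Dkk4 and Kremen2 were too dim. Kremen1, a Dickkopf receptor, was higher in T1R1 (0.49 ± 0.12, limma, adjusted p = 0.0205) and lower in T3R1 than in T1R1 and T2R1 (-0.50 and -0.34). Lrp5, a Wnt receptor, was lower in T3R1 than in T2R1 (-0.46 ± 0.13, adjusted p = 0.0168). In the fit without control replicate 1 the Kremen1 call in T1R1 held (0.47, adjusted p = 0.0293), the Wnt receptor Lrp6 was lower in T1R1 and T2R1 (-0.43 and -0.37) and Lrp5 lower in T3R1 (-0.25). Of 8 genes tied to Nr2f2 in vein and artery identity, Aplnr, the apelin receptor, fell in T2R1 (-0.70 ± 0.21, adjusted p = 0.0308) and none passed in the other comparisons. The Aplnr call ended without control replicate 1 (-0.60, adjusted p = 0.0632), where Vwf, the von Willebrand factor of endothelium, was lower in T1R1, T2R1 and T3R1 (-0.42, -0.33 and -0.32).

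Markers of other tissues that are attached to the atria were read beside these results. Of 7 fat genes, 3 were lower in T1R1 (Ucp1, Adipoq and Cidea), none passed in T2R1 or T3R1, and the list's median was -2.51, -1.55 and -0.39; Ucp1, the brown fat uncoupling protein, had values between -6.11 and 2.63 in T1R1 and between 1.71 and 5.51 in control. None of the 7 was lower in T1R1 without control replicate 1, and 1 was then higher in T2R1. The summed level of the fat list was 205 to 414 in control, 133 to 296 in T1R1, 145 to 241 in T2R1 and 171 to 282 in T3R1, in units of the 75th percentile. Of 8 measured nerve and Schwann cell genes, 4 were lower in T1R1 and 3 in T2R1 (6 and 3 without control replicate 1). Among them was the neurofilament Nefl (-2.31 and -2.78), with values of -6.11 to -3.13 in T1R1 and -5.87 to -5.06 in T2R1. The filter on dim probes asked for signal above background in 1 group only. The lowest Nefl and Ucp1 values can therefore lie near background, and the size of these differences is uncertain. The nerve list's sum was 7.67 to 12.8 in control, 4.72 to 8.32 in T1R1, 5.59 to 9.37 in T2R1 and 6.67 to 10.4 in T3R1. The part of fat and nerve in the atrial values was not tested.

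Fibroblast genes moved the other way in T3R1. Of 6, Col1a1 and Col3a1 were higher (2.30 ± 0.42 and 2.52 ± 0.50, limma, adjusted p = 0.0272 and 0.0377), and the list's sum was 381 to 448 in T3R1, 258 to 364 in control, 208 to 251 in T1R1 and 267 to 306 in T2R1. Smooth muscle genes gave sums of 99.5 to 108 in T3R1, 61.2 to 104 in control, 39.7 to 49.0 in T1R1 and 56.5 to 72.6 in T2R1, with Acta2 lower in T1R1 (-0.92) and T2R1 (-0.48), the latter not without control replicate 1. That setting brought the fibroblast genes called higher to 4 of 6 in T3R1 and 2 of 6 in T2R1. Their part in the T3R1 values of the atrial genes was not tested.

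The remaining marker lists gave few calls against control with all arrays. No gene passed among 7 epicardial and mesothelial genes (Upk3b among them), 7 genes of venous and lymphatic endothelium, 5 measured of 9 skeletal muscle genes, 2 measured of 6 lung genes, 6 measured of 7 liver genes or 2 measured of 3 blood genes. The defining fast myosins of skeletal muscle (Myh1, Myh2 and Myh4) and the lung surfactant genes Sftpc, Sftpb and Sftpa1 did not pass the filter on dim probes. The airway gene Scgb1a1, 1 of the 2 lung genes measured, stood at 5.44 on control replicate 1 and at 5.63 on T3R1 replicate 1, against -3.75 to -1.36 on the other 14 arrays, and the lung list's sum reached 43.7 and 49.8 there; its part in the atrial values was not tested. Without control replicate 1, 2 of the 7 venous and lymphatic genes were lower in each of T1R1, T2R1 and T3R1 (Prox1 and Vwf) and 1 was higher in T3R1, and of the skeletal muscle genes 1 was higher in T2R1, and 1 higher and 1 lower in T3R1. Of 4 measured thymus and T cell genes, Cd247 was higher in T1R1 and Cd3e and Cd247 in T2R1 (without control replicate 1, Cd247 in T1R1, and Cd247 and Cd8a in T2R1, while Cd3e had an adjusted p of 0.0684), with sums of 2.47 to 3.51 in control, 3.43 to 6.97 in T1R1, 4.53 to 5.47 in T2R1 and 2.26 to 3.81 in T3R1.

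The members varied together from heart to heart. Over the 16 arrays Pearson's r of the 15 pairs ran from 0.58 (Myl4 and Bmp10) to 0.96 (Sln and Myl7), with a median of 0.75, and Spearman's rho from 0.55 to 0.95. All 15 pairs had adjusted permutation p-values of 0.0185 or less for r, and of 0.0284 or less for rho (permutation test, 100000 resamples, two-sided, Benjamini-Hochberg over the 15 pairs). For Sln and Myl7 p was 1e-05, the smallest the resamples can give, and 3.75e-05 after adjustment. Scaling and RNA content are shared by all genes of an array, so a common factor of the array enters every r. The permutation moved values over all 16 arrays without regard to group or slide. Of 16416 gene names without missing values, 0% had a higher r to Sln than Myl7 had. To Nr2f2, 10.2% had a higher r than Dkk3 had, and to Myl7, 9.27% had a higher r than Bmp10 had. How many other sets of genes would pass was not tested.

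Split by slide, r ran from 0.79 to 0.99 over the 8 arrays of control and T3R1, and all 15 pairs passed. Over the 8 arrays of T1R1 and T2R1 it ran from 0.22 to 0.93, and 7 of 15 pairs passed (permutation test); the pairs of Bmp10 with Myl4 (0.22) and Myl7 (0.25) were the weakest. Without the 2 arrays farthest from the median of the first gene, r was 0.45 to 0.93 and 14 of 15 pairs passed. Omitting control replicate 1 gave 0.56 to 0.97, with all 15 past the threshold. After scaling to the 12 muscle genes r was 0.45 to 0.95, and 12 of 15 passed. Deviations from the group means gave 0.53 to 0.96, so the arrays of 1 group varied together too.

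**Figure D5:**
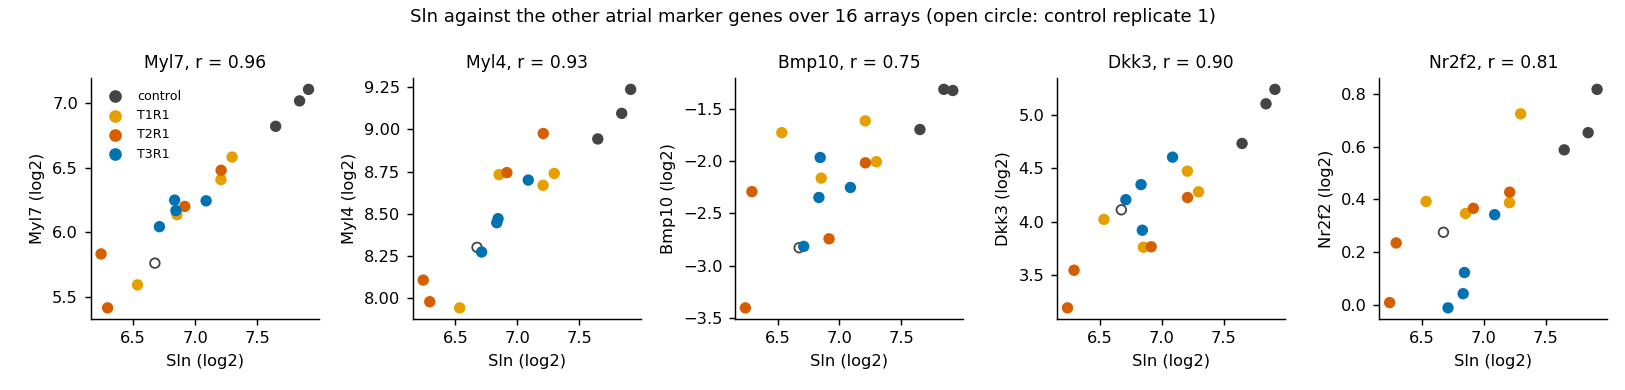
The log2 value of Sln (horizontal axis) is plotted against Myl7, Myl4, Bmp10, Dkk3 and Nr2f2 (vertical axes) for 16 arrays, coloured by group, with control replicate 1 as an open circle. Myl7 follows Sln most closely (r = 0.96), Bmp10 least (r = 0.75), and control replicate 1 lies within the same band as the other arrays.

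Among 16491 other gene names, those most like Sln over the 16 arrays were Myl7 (r = 0.96), Sort1 (0.95) and Stard10 (0.94). Myl7 was most like Sln, Mybphl (0.96) and Sort1 (0.95), and Myl4 most like Myl7, Mybphl (both 0.94) and Sln (0.93). Mybphl, an atrial myosin binding protein, and Stard10 were on the list of further atrial genes. Dkk3 was most like Scrn1 (0.92), Ramp1 and Aldh1b1 (both 0.91), Bmp10 like Zfp551 (0.90), Ccnjl (0.89) and Cacna2d2 (0.88), and Nr2f2 like Tafa5 (0.95), Polg2 (0.94) and Tppp (0.93). To Sln, Nppa had an r of 0.43, Myl2 0.47 and Tnnt2 0.43, where the median of all gene names was 0.06. Among the ventricular genes Kcnj2 had 0.80, Mylk3 0.74 and Kcnip2 0.72, near the 0.75 of the member Bmp10. These correlations are descriptions over arrays that share group, slide and scaling.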

How the data were processed

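Each heart was read on 1 array. Per the file headers, Feature Extraction 10.7.3.1 made the processed intensity, with background subtracted. The deposited mean intensity of a spot and its local background were used, per the file headers, in an alternative alone. The authors' deposited value table holds log2 values, normalized between arrays by a method not given in the sources used here. Members and lists were chosen with earlier results of these data known.

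Outlier spots were left out, log2 processed intensity was scaled to the 75th percentile over spots that are not controls, and replicate spots were averaged per probe. Probes were kept if well above background on all 4 arrays of a group (31390 of 55681 probes). Each name was represented by its brightest probe, giving 22763 features, of which 102 single values were missing. Of the probes, 26762 were named through a RefSeq accession and 28919 kept the file's name. One linear model over the 16 arrays (limma 3.58.1, R 4.3.3; 12 residual degrees of freedom) gave p-values, adjusted by Benjamini-Hochberg over all features at 0.05. Named besides the members were Nppa and up to 6 called atrial genes, up to 3 called genes of each other list by F test, 12 fixed genes, and the 3 gene names most like each member; genes lower only without control replicate 1, other called markers and genes named as too dim were picked after their values were seen. Sequences came from the array files and RefSeq. The fit was tested on simulated data. The number of arrays limits the precision. Replicates are separate mice.

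Same-numbered arrays did not deviate together: over 24 pairs the correlation of deviations ran from -0.32 to 0.39, and 9 exceeded 0.1.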

Additional observations from a re-analysis of the deposited data

Results flagged for a closer look

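Among the 24 sets of 4 arrays (6 genes in 4 groups), 2 held an array that lay far from the other 3. Chance alone gives about 1 such set in 20. For Myl4 in T1R1, replicate 3 was the lowest at 7.94 against 8.67 to 8.74 on the other 3 arrays. For Nr2f2 in T1R1, replicate 1 was the highest at 0.72 against 0.35 to 0.39.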

How the results depend on the processing

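The values against control held their direction in most settings. Below 0 in all 31 alternatives were all members in T2R1 and T3R1, and in T1R1 all but Bmp10 (27 of 31) and Nr2f2 (29 of 31). In T2R1, Dkk3 was called in 31 of 31 alternatives, Sln in 16, Bmp10 in 7, Myl7 in 5, Nr2f2 in 4 and Myl4 in 2.

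Members called, with all arrays, numbered 0 in T1R1, 2 in T2R1 and 0 in T3R1 against control. Leaving out 1 array at a time gave 0 to 3, 1 to 5 and 0 to 5, 0 to 1 for T3R1 against T1R1, 1 to 3 for T1R1 and T2R1 against control and T3R1, and 0 to 5 for the F test; the highest came without control replicate 1. Scaling to the median called 5 in T1R1, 6 in T2R1, 1 in T3R1 against T2R1, 6 between the slides and 6 in the F test, while the median of all features moved to -0.44, -0.37 and -0.11 against control. Array weights called 3 in T1R1, 6 in T2R1, 5 in T3R1, 2 between the slides and 5 in the F test. Without control replicate 1 and T1R1 replicate 1 the counts were 3, 5 and 5, 3 between the slides and 5 in the F test. Scaling to 12 muscle genes called 1 in T3R1 against T2R1 and 2 between the slides, and without control replicate 1 as well it called 4 in T2R1, 1, 2 and, in the F test, 3. An adjusted p under 0.10 called 1 in T3R1 against control, 1 in T3R1 against T1R1 and 2 in the F test. Normexp correction and the authors' values called 1 in T3R1 against T2R1, and the authors' values and an intensity trend 2 in the F test. No filter on dim probes gave 1 in T2R1 and 0 in the F test, and only the arrays compared gave 1 in T2R1. Over the slide of T1R1 and T2R1 alone, 7 pairs passed. Except where fewer arrays or more features entered, the cause was not tested. The shares of all features called are not given beside these counts. Such shares can move with the setting: features called lower in T3R1 went from 0.189% to 19.2% without control replicate 1. The counts alone therefore do not set the members apart from other features.

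The replicate numbers did not pair the arrays: 2 of 16 correlated best with their own number. With the replicate number as a block 1 member was called in T2R1 (Dkk3; Sln had an adjusted p of 0.0763) and 0 in the F test.

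None of the differences that changed sign had been called with all arrays; Nr2f2 in T3R1 against T1R1 was called without control replicate 1. For T3R1 against T1R1, Sln gave 0.30 (median), 0.0044 (without both arrays) and 0.041 (muscle scaling, with or without control replicate 1). Myl7 gave 0.16 (normexp), 0.40 (median), 0.092 (authors' values), 0.13 (without both arrays) and 0.14 (muscle scaling, both ways). Myl4 gave 0.010 (normexp), 0.014 (quantile), 0.36 (median), 0.020 (authors' values), 0.025 (without both arrays) and 0.097 (muscle scaling, both ways). Nr2f2 gave 0.066 (median). For T2R1 against T1R1, Myl4 gave 0.021 (array weights) and 0.0035 (without both arrays). For T3R1 against T2R1, Myl4 gave -0.041 (array weights) and Nr2f2 0.22 (median) and 0.17 (muscle scaling, both ways). For T1R1 against control, muscle scaling gave 0.041 for Bmp10 and 0.0074 for Nr2f2, and 0.16 for Nr2f2 without control replicate 1. Between the slides Nr2f2 gave -0.39 (median, adjusted p = 0.00714, called), -0.012 (array weights), -0.088 (without both arrays), -0.082 and -0.0057 (muscle scaling, with and without control replicate 1). Leaving out 1 array gave -0.25 to 0.0044 (Sln), -0.20 to 0.13 (Myl7) and -0.24 to 0.025 (Myl4) for T3R1 against T1R1, -0.26 to 0.088 (Myl4) for T2R1 against T1R1, -0.14 to 0.20 (Myl4) for T3R1 against T2R1, -0.43 to 0.073 (Bmp10) for T1R1 against control and -0.044 to 0.049 (Nr2f2) between the slides. The cause was not tested.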
